A study of Mus musculus with 10 samples.

Results

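Ribosome footprints of 7 oncofetal genes were followed through neocortex development in the mouse. The genes are Lin28a, Lin28b, Igf2bp1, Igf2bp2, Igf2bp3, Hmga1 and Hmga2, taken by gene symbol from a table of 22373 genes, in which all 7 were found. Oncofetal genes are made at high levels in embryonic tissue and in many tumours, and at low levels in most adult tissues. Lin28 proteins bind RNA and block the maturation of the let-7 microRNAs, and let-7 in turn represses Lin28, Igf2bp and Hmga2 mRNAs. Igf2bp proteins bind and stabilise mRNAs such as that of Igf2, while Hmga proteins are small chromatin proteins that bind AT-rich DNA. In the developing brain these genes are best known from early neural stem cells, whose competence changes as the embryo ages.

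The samples were neocortex of wild-type CD-1 mice at E12.5, E14, E15.5 and E17, where E counts embryonic days after timed mating, and at P0, the day of birth. Each stage had 2 libraries, 10 in all, and per the study's methods brains of both sexes were pooled for a library, so a replicate stands for several animals. Tissue lysates were digested with RNase T1 and RNase A in every library, and the mRNA fragments protected by ribosomes (footprints) were sequenced. Their number reflects both how much of an mRNA was present and how densely ribosomes covered it, and RNA-seq was not analysed here.

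Total footprint counts ran from 7544404 in P0 replicate 1 to 36129988, and the spread between the replicates of a stage (SD of the log2 ratio over 4559 well covered genes) was 0.13 to 0.22 in the embryonic stages and 0.54 at P0. The neocortex label was checked against marker lists. Neuron markers summed to 2358 and 2295 CPM (footprint counts scaled to library size) at E12.5 and to 8611 and 9905 CPM at P0. No gene of the progenitor or neuron lists was at 0 in all libraries. This held for every other marker list too, so it does not tell tissues apart. The E12.5 and E14 libraries also carried markers of the choroid plexus and the meninges, described with the results below.

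Lin28a and Lin28b were at or near 0 at every stage. Lin28a (ENSMUSG00000050966) had 0 counts in all 10 libraries, out of 266877621 counts together, which allows a level of up to 0.0112 CPM, taking 3 counts as the limit. In all, 3004 genes of the table had no count in any library. Lin28b (ENSMUSG00000063804) had 1 count in each of 7 libraries and 0 in the other 3, namely E15.5 replicate 2, E17 replicate 1 and P0 replicate 1. Over all libraries this was 0.0262 CPM, with an exact 95% Poisson interval of 0.0105 to 0.054 CPM that covers counting error only. Both genes failed the filter on low counts, so that 5 of the 7 genes were tested. No change of Lin28b was detectable at this depth. Trim71, another oncofetal let-7 target that encodes a stem cell ubiquitin ligase, was as sparse, with at most 2 counts in a library, and was not tested either.

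The sequences below show what Lin28 and let-7 act through. The footprints do not measure microRNAs, so these come from RefSeq on the mouse build GRCm38.p6. The let-7 seed, GAGGUAG at bases 2 to 8 of the mature microRNA, is the part that pairs with target mRNAs, and it was shared by 13 of 1738 mature entries under 11 names. Mature forms from 3 loci are shown with the seed in capitals, from chr13:48538239-48538260 (minus strand), chr9:106178846-106178867 (plus strand) and chrX:151913229-151913250 (plus strand).
let-7a: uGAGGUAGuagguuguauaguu
let-7g: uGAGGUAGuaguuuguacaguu
miR-98: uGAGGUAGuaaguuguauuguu

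The zinc knuckles of Lin28 are known to bind GGAG in the loop region of let-7 precursors. Hairpins were taken by gene name, Mirlet7 or Mir98, which leaves out let-7k (gene Mir7k). A search for GGAG on the hairpin strand found it in 9 of these 12 hairpins, against 44.5% of all 1005 mouse hairpins in the table. It was not in the hairpins of Mirlet7b, Mirlet7c-2 and Mir98, and a match is no evidence of binding. Hairpins with and without it are shown with GGAG in capitals, from chr9:106178840-106178927 (plus strand), chr10:122985640-122985724 (minus strand) and chr15:85707319-85707403 (plus strand).
Mirlet7g: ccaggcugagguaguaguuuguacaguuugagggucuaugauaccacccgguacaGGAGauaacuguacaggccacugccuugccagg
Mirlet7i: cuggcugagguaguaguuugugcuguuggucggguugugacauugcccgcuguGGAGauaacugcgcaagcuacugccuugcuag
Mirlet7b: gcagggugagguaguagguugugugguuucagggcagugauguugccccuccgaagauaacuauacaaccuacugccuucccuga

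The 3 Igf2bp genes were each lower at every stage than at the one before, in both libraries. Igf2bp1 (ENSMUSG00000013415), which stabilises mRNAs and directs their transport in neurons, had the steepest course. Its libraries stood at 20.1 and 21.7 CPM (E12.5), then 14.1 and 13.7 (E14), 4.58 and 3.67 (E15.5), 1.52 and 1.88 (E17) and 0.761 and 0.859 CPM (P0). No library of a stage overlapped those of the next, and the P0 mean was 3.88% of the E12.5 mean.

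Igf2bp2 (ENSMUSG00000033581), the paralogue that persists best in adult tissues, had 32.9 and 36.7 CPM (E12.5), then 25.0 and 22.3 (E14), 9.28 and 8.19 (E15.5), 5.08 and 4.77 (E17) and 2.94 and 2.17 CPM (P0). Its P0 mean was 7.34% of the E12.5 mean. Igf2bp3 (ENSMUSG00000029814), the paralogue best known from tumours, had 18.3 and 19.3 CPM (E12.5), then 14.2 and 13.2 (E14), 8.44 and 7.85 (E15.5), 4.38 and 4.32 (E17) and 3.26 and 3.08 CPM (P0). It kept 16.9% of its E12.5 level. The replicates of Igf2bp3 lay within a ratio of 1.08 of each other at every stage after E12.5, and again no neighbouring stages overlapped. Lower values in both libraries at each of the 4 steps, as in these 3 genes, were found in 4.41% of the 13484 genes tested.

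The Hmga genes followed different courses. Hmga1 (ENSMUSG00000046711), the chromatin protein made by most dividing cells, had 767 and 669 CPM (E12.5), then 665 and 605 (E14), 310 and 309 (E15.5), 329 and 303 (E17) and 194 and 228 CPM (P0). E15.5 and E17 overlapped, and P0 kept 29.4% of the E12.5 mean. Hmga1b, a near-identical copy, had 16.8% to 17.6% of the Hmga1 counts in every library, so that reads of both genes may be split between them and their values are uncertain to that extent.

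Hmga2 (ENSMUSG00000056758), the embryonic paralogue that promotes self-renewal of fetal neural stem cells, had 38.6 and 30.8 CPM at E12.5 and 12.9 and 11.6 at E14. Later values were 2.59 and 0.887 CPM (E15.5), 1.08 and 0.338 (E17) and 0.326 and 0.0477 CPM (P0). The counts behind the P0 values were 3 and 2, at or under the limit of 3 counts, and the P0 mean was 0.539% of the E12.5 mean. Replicate 1 exceeded replicate 2 by ratios of 2.92, 3.2 and 6.84 from E15.5 to P0, against 1.25 and 1.11 at the earlier stages. Col1a1 and Col3a1 are markers of meningeal fibroblasts from a list of 10. The same ratio at E15.5, E17 and P0 was 0.999, 1.75 and 1.46 for Col1a1 and 1.27, 2.47 and 1.52 for Col3a1. The whole list summed to 5.45 and 5.53 CPM (E15.5) and 13.9 and 11.6 CPM (E17) in replicates 1 and 2. At P0 the sum was slightly lower in replicate 1 than in replicate 2. Pdgfra made up a large part of these sums, with means of 2.49 CPM (E15.5), 6.16 (E17) and 8.38 CPM (P0). The part of these cells in the Hmga2 values was not tested.

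**Figure D1:**
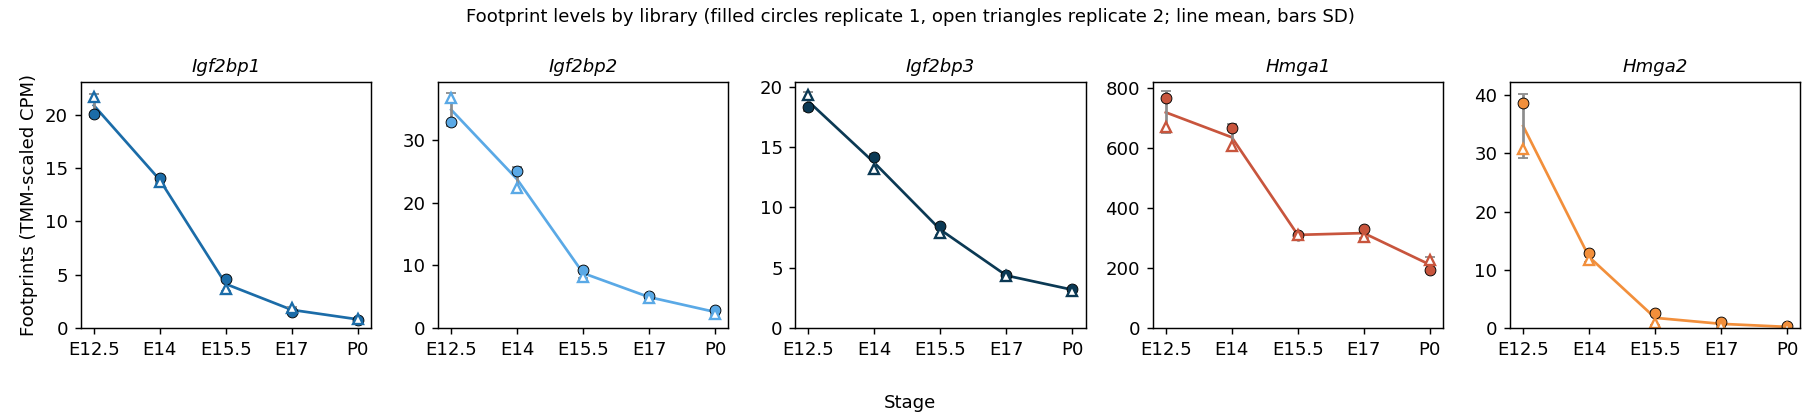
Footprint level (TMM-scaled CPM, linear axes that start at 0 and differ between panels) against stage for the 5 tested genes. Filled circles are replicate 1, open triangles replicate 2, the line joins stage means and bars are the SD of 2 libraries. Hmga1 stays level from E15.5 (310 CPM) to E17 (316 CPM), while the means of the other 4 genes are lower at each step.

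From E12.5 to P0 all 5 genes were called lower by limma-voom (adjusted p under 0.05 by Benjamini-Hochberg over all genes tested, and a fold of at least 1.25), where 32% of all genes tested were called lower. The fitted log2 fold change was -4.60 ± 0.22 (SE) for Igf2bp1 (adjusted p = 1.28e-06), -3.89 ± 0.17 for Igf2bp2 (8.62e-07) and -2.58 ± 0.12 for Igf2bp3 (1.26e-06). It was -1.76 ± 0.12 for Hmga1 (5.56e-06). In tissue lysates, fewer cells of a type and less RNA per cell cannot be told apart.

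Hmga2 had a fitted log2 fold change of -8.61 ± 1.31 from E12.5 to P0 (limma-voom adjusted p = 0.000573), the largest fitted fall among the genes tested. Its 95% interval was -11.61 to -5.61. The globin genes Hba-x (-8.00 ± 0.36) and Hbb-y (-7.87 ± 0.21) lay inside it, so the first place is not settled. With 5 counts at P0, the fitted value of Hmga2 depends on the prior count. The ratio of the summed counts, scaled by library size, was 347 (exact 95% binomial interval 148 to 1071). The fitted value was -6.50 with P0 replicate 2 left out and -9.17 with P0 replicate 1 left out, and both were still called. With sample quality weights the adjusted p was 0.0628, the one alternative under which this call was lost. By the same order of fitted falls, Igf2bp1 stood at 71, Igf2bp2 at 190, Igf2bp3 at 755 and Hmga1 at 1408. A limma-voom F test across the 5 stages called all 5 genes, with adjusted p-values from 2.9e-06 for Igf2bp1 to 0.000243 for Hmga2, where 63.8% of all genes tested were called.

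From E12.5 to E14, as the first neurons are born, none of the 5 genes was called (0.638% of all genes tested were). All 5 had both E14 libraries below both E12.5 libraries, as had 26.2% of genes. The fitted log2 fold changes were -0.59 ± 0.12 for Igf2bp1 (limma-voom adjusted p = 0.0679), -0.56 ± 0.12 for Igf2bp2 (0.0769), -0.46 ± 0.10 for Igf2bp3 (0.0733), -0.17 ± 0.12 for Hmga1 (0.526) and -1.49 ± 0.30 for Hmga2 (0.0678). At an unadjusted p under 0.05, 4 of the 5 passed in limma-voom, and edgeR and DESeq2 likewise called 0 with 4 at that unadjusted level. The count was not the same under all alternatives, and the reason was not tested. When only the 2 stages were fitted, with no P0 library, limma-voom called 0 (4 at an unadjusted p under 0.05). Without P0 replicate 1 or without P0 replicate 2, and with sample quality weights, the same 4 genes (all but Hmga1) were called.

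From E14 to E15.5, the middle of neurogenesis, all 5 genes were called lower, beside 19.6% of all genes tested, and both later libraries lay below both earlier ones, as in 38.8% of genes. The fitted log2 fold change was -1.74 ± 0.14 for Igf2bp1 (limma-voom adjusted p = 0.00011) and -1.43 ± 0.13 for Igf2bp2 (0.000183). The smallest change was that of Igf2bp3, at -0.74 ± 0.10 (0.00111), and Hmga1 was at -1.04 ± 0.12 (0.0004). Hmga2 stood at -2.89 ± 0.43 (0.00148), or at -3.75 with E15.5 replicate 1 left out and -2.23 with E15.5 replicate 2 left out. All 5 were called at this step under every alternative run. Scaling by total counts alone raised the median over all genes from -0.0086 to 0.29 at this step and from -0.013 to 0.51 between E12.5 and P0, and the 5 genes were then still lower, by -0.45 (Igf2bp3) to -2.59 (Hmga2) from E14 to E15.5. With that scaling the shares of all genes called lower and higher were 12.3% and 32.7% at this step, in place of 19.6% and 16.5%, and 18.6% and 47.8% between E12.5 and P0, in place of 32% and 30.1%. The lists of related genes are given with both scalings for this reason. Histone genes made up 35% and 32.7% of all counts at E14 and 18.7% and 17.2% at E15.5. Their part in the shift between the scalings was not tested.

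Between E15.5 and E17 the Igf2bp genes fell again and the Hmga genes were not called. The log2 fold changes were -1.29 ± 0.18 for Igf2bp1 (limma-voom adjusted p = 0.00873), -0.83 ± 0.15 for Igf2bp2 (0.0175) and -0.90 ± 0.12 for Igf2bp3 (0.00772), so that 3 of 5 genes were called lower beside 3.43% of all genes tested. In both libraries these 3 were lower at E17, as were 33.8% of genes. Hmga1 was at 0.026 ± 0.12 (0.932, 95% interval -0.24 to 0.29) and Hmga2 at -1.33 ± 0.68 (0.267), with overlapping libraries for both. The Hmga2 value was -0.47 with E15.5 replicate 1 left out and -2.21 with E17 replicate 1 left out. The direction of Hmga1 turned to -0.033 without E17 replicate 1. Leaving out E15.5 replicate 1, E15.5 replicate 2, E17 replicate 1 or E17 replicate 2 left 0 of 5 genes called by limma-voom, with 3 or 4 at an unadjusted p under 0.05 and at most 0.133% of all genes called. edgeR and DESeq2 called 3 each on the full data.

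From E17 to P0, when neurogenesis ends, 4 of 5 genes were called lower, beside 11.1% of all genes tested, and all 5 had both P0 libraries below both E17 libraries, as had 28.9% of genes. Igf2bp1 was at -0.98 ± 0.25 (limma-voom adjusted p = 0.0285), Igf2bp2 at -1.07 ± 0.18 (0.00655), Igf2bp3 at -0.47 ± 0.13 (0.0408) and Hmga1 at -0.58 ± 0.12 (0.012). Hmga2 was at -2.90 ± 1.41 (0.178), and the ratio of its summed counts was 7.56 (exact 95% binomial interval 3.0 to 24.5). Its fitted value was -0.79 with P0 replicate 2 left out and -3.63 with E17 replicate 2 left out. DESeq2 called Hmga2 at this step (adjusted p = 0.02, in a range of 0.02 to 0.683 over the alternatives). These calls depended on single libraries. Limma-voom called 0 of 5 without E17 replicate 1 (4 at an unadjusted p under 0.05), 2 without E17 replicate 2 and 1 without P0 replicate 2. It also called 0 with sample quality weights (2 at an unadjusted p under 0.05) and 0 when only the 2 stages were fitted (3 at that level), while edgeR and DESeq2 called 4 each, those of DESeq2 with Hmga2 in place of Igf2bp3. The Igf2bp3 call was lost without any library but P0 replicate 1, in 9 of 10 cases, with adjusted p-values from 0.0582 to 0.195. It was also lost with DESeq2 (0.186), with scaling by total counts (0.0819) or by DESeq2 size factors (0.0531), and without the filter on low counts (0.0594), each of the last 3 leaving 3 genes called.

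In order of level, Igf2bp1, Igf2bp2, Igf2bp3 and Hmga2 followed the calendar, and the neighbours not called different were E12.5 and E14 for all of these genes, whose libraries did not overlap, and for Hmga2 also E15.5 and E17, and E17 and P0. For Hmga1 the order was E12.5, E14, E17, E15.5 and P0. Its E12.5 and E14 levels were not called different, nor were E17 and E15.5, while P0 was called below E15.5 (-0.55 ± 0.12, limma-voom adjusted p = 0.00782), as were 17% of all genes tested.

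**Figure D2:**
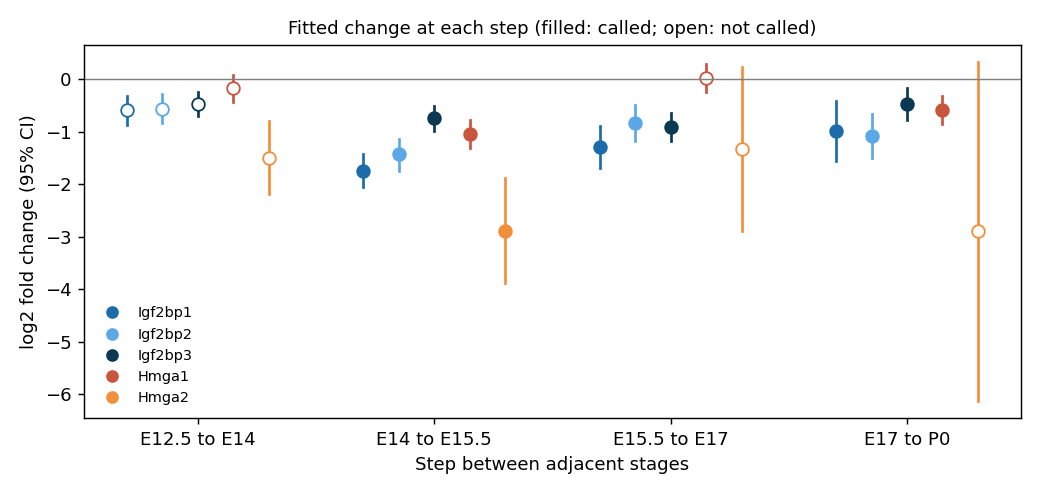
Fitted log2 fold change (limma-voom, later minus earlier stage) of 5 genes at the 4 steps between adjacent stages, with 95% confidence intervals. Filled points were called and open points were not, and all 5 points are filled only at the step from E14 to E15.5, where they run from -0.74 (Igf2bp3) to -2.89 (Hmga2).

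The paralogues did not keep their proportions. Ratios of counts within a library do not depend on the scaling between libraries, and were compared across stages by an exact permutation test of the F statistic over the 945 ways to arrange the 10 libraries in pairs, whose smallest p is 0.00106. In E12.5 replicate 1 and replicate 2 the log2 ratio of Igf2bp1 to Igf2bp3 was 0.14 and 0.16, and in the P0 libraries it was -2.02 and -1.83. Stage means went from 0.15 through 0.02, -0.99 and -1.35 to -1.93 (exact p = 0.00106, adjusted over 4 ratios 0.00212). No P0 library reached the range of an earlier stage.

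Igf2bp2 over Igf2bp3 followed a like course, with stage means of 0.89, 0.79, 0.10, 0.18 and -0.33 (exact p = 0.00106, adjusted 0.00212). Its libraries read 0.82 and 0.76 at E14 and 0.14 and 0.06 at E15.5. Igf2bp3 was thus the smaller of this pair in counts before P0 and the larger at P0, at -0.15 and -0.50. Counts are not corrected for coding length, so the sign of a ratio does not say which mRNA had more ribosomes per length.

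For Igf2bp1 over Igf2bp2 the stage means were -0.73, -0.77, -1.08, -1.53 and -1.60 (exact permutation p = 0.0434, adjusted 0.0434). This difference rested on single libraries. The exact p ran from 0.0159 to 0.0931 with 1 library left out and missed the threshold in 7 of 10 cases, in which either E12.5, either E14, either E15.5 or the second E17 library was left out. The P0 minus E12.5 difference of -0.87 was -1.14 with P0 replicate 2 left out and -0.59 with P0 replicate 1 left out.

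The ratio of Hmga1 to Hmga2 differed between stages, with log2 means of 4.38, 5.70, 7.65, 8.98 and 10.45 (exact permutation p = 0.0138, adjusted 0.0183). In plain counts Hmga1 exceeded Hmga2 by ratios of 19.9 and 21.7 in the E12.5 libraries and by 51.6 and 52.2 at E14. The libraries split widely after that, at 120 and 349 for E15.5, 305 and 896 for E17, and a log2 ratio of 8.99 and 11.90 for P0. The difference between P0 and E12.5 was 6.07, with a range of 4.62 (P0 replicate 2 left out) to 7.52 (P0 replicate 1 left out). Lin28a over Lin28b was not tested, with 7 counts between them.

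**Figure D3:**
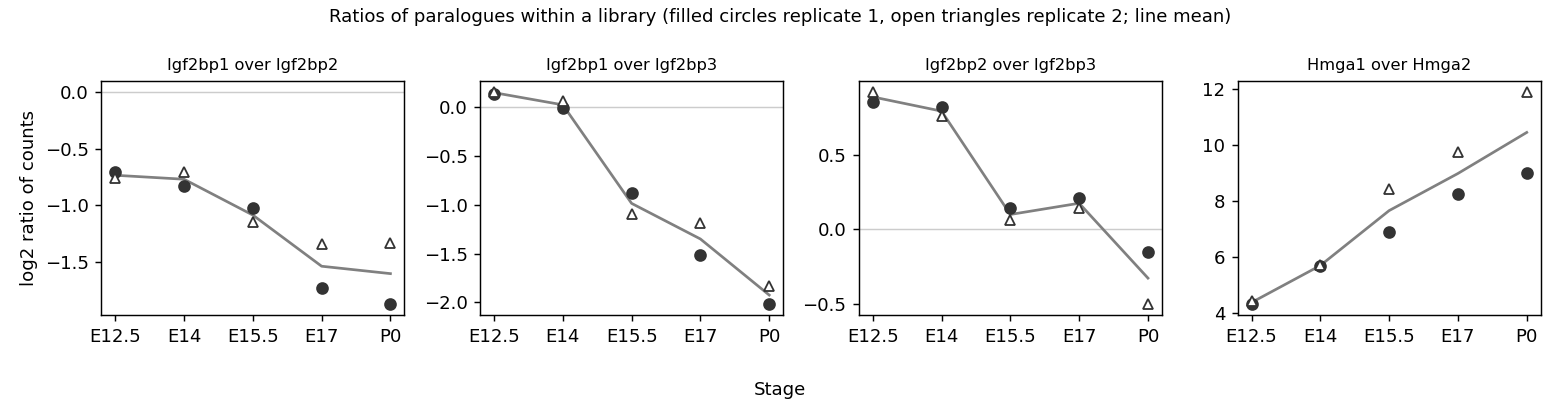
Log2 ratio of footprint counts between paralogues in each library (y axis, not corrected for coding length) against stage (x axis). Filled circles are replicate 1, open triangles replicate 2 and the line joins stage means. Igf2bp1 over Igf2bp3 falls from 0.15 to -1.93 and Hmga1 over Hmga2 rises from 4.38 to 10.45.

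The genes with the most similar course were found by the root mean square difference of centred log2 CPM over the 10 libraries, among 9210 genes. For Igf2bp1 they were Tgif1 (a difference of 0.18), a repressor of transcription, Uhrf1 (0.25), which maintains DNA methylation at replication, and Dlgap5 (0.30), a spindle protein. Igf2bp2 lay nearest to Grb10 (0.11), an imprinted adaptor that dampens insulin and Igf receptor signalling, Asf1b (0.13), a histone chaperone, and Hist1h1a (0.15), a linker histone. For Igf2bp3 the nearest were Mcm6 (0.09), a subunit of the replicative helicase, Nuak2 (0.11), a kinase, and Ctnna1 (0.12), the alpha-catenin of adherens junctions.

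Hmga1 lay nearest to its copy Hmga1b (0.02), but reads may be split between them, so this does not show a separate gene of like course. Next were Cers2 (0.12), a ceramide synthase, and Casp6 (0.12), a caspase. No gene was close to Hmga2, whose nearest were Lhx9 (0.75), a LIM homeodomain factor, Hbb-bh1 (0.81), an embryonic globin, and Gpc3 (0.81), a glypican of growing embryonic tissue. The Hmga2 replicates themselves differed by log2 ratios of 1.55 (E15.5), 1.68 (E17) and 2.77 (P0). This spread enters the difference, which cannot tell it from a distinct course. Igf2bp1 and Igf2bp2 differed by 0.39, Igf2bp3 and Hmga1 by 0.40, and Hmga1 and Hmga2 by 2.11. These differences are descriptions over 10 libraries that share stages, and carry no test.

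Igf2, the growth factor whose mRNA gave the Igf2bp family its name, had mean levels of 274 CPM (E12.5), 230 (E14), 26.0 (E15.5), 50.6 (E17) and 17.8 CPM (P0). The step from E14 to E15.5 was -3.15 ± 0.17 on the log2 scale (limma-voom adjusted p = 4.43e-05). Unlike the Igf2bp genes, Igf2 was called higher from E15.5 to E17 (0.96 ± 0.18, adjusted p = 0.019), as were 5.61% of all genes tested. Meningeal fibroblasts and blood vessels are among the known sources of Igf2 in the fetal brain. Summed fibroblast markers were 74.3 and 83.7 CPM (E14), 5.45 and 5.53 (E15.5) and 13.9 and 11.6 CPM (E17). Within these sums, Pdgfra alone had means of 7.05 CPM (E14), 2.49 (E15.5) and 6.16 CPM (E17). Summed choroid plexus markers were 1128 and 1136 CPM at E14 and 14.3 and 11.4 CPM at E15.5. The part of these cells in the Igf2 values was not tested.

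Other genes of the Igf axis were mixed. Of 17 tested, 11 were called lower and 4 higher from E12.5 to P0, with a median of -0.73 against -0.013 over all genes, where 32% of all genes were called lower and 30.1% higher. Grb10 fell from 381 to 28.1 CPM (-3.78 ± 0.11) and Igf2r, which clears Igf2, from 4.87 to 1.04 CPM (-2.24 ± 0.17). The receptor Igf1r fell by 1.05 ± 0.18 on the log2 scale. Pik3r1, a regulatory subunit of PI3 kinase, rose from 7.39 to 49.0 CPM (2.73 ± 0.30), and Irs2, an adaptor of both receptors, by 1.57 ± 0.23. The kinase Akt1 was not called. Scaled by total counts, 8 of the 17 were lower and 6 higher (median -0.21), with Akt1 (0.70) among the higher.

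Of 10 genes for proteins found with Igf2bp1 on mRNAs, 8 were called lower and 0 higher from E12.5 to P0 (median -0.90). Over all genes tested 32% were called lower and 30.1% higher. From E14 to E15.5, the step at which all 3 Igf2bp genes were called, 0 were called in either direction (median -0.19). At this step 19.6% of all genes tested were called lower and 16.5% higher. Pabpc1, the poly(A) binding protein, stood at -1.60 ± 0.21 over the whole course, the RNA helicase Dhx9 at -1.38 ± 0.28 and Hnrnpu, a nuclear RNA binding protein, at -1.38 ± 0.25. Elavl2, a neuronal RNA binding protein, had 499 and 486 CPM and was not called. Scaled by total counts, 5 were lower and 1, Elavl2 (0.48), was higher over the whole course (median -0.37), and from E14 to E15.5, 2 were higher (median 0.11).

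Of 21 tested genes of the let-7 pathway, 10 were called lower and 1 higher between E12.5 and P0. Over all genes tested 32% were called lower and 30.1% higher. The median of the list was -0.46. The nuclear enzyme Drosha (14.8 and 15.1 CPM at the 2 stages) and its partner Dgcr8 (a log2 fold change of 0.025 ± 0.18) were not called. Dicer1, which makes the mature microRNA, was at -0.46 ± 0.13 (limma-voom adjusted p = 0.0136). Tut4, the uridyltransferase that Lin28 recruits to let-7 precursors, was lower by -1.01 ± 0.22 (0.00437), while the related Tut7 (0.22 ± 0.19) and the exonuclease Dis3l2 (0.24 ± 0.12) were not called. Msi1, an RNA binding protein of neural stem cells known to act with Lin28, had the deepest fall, from 105 to 18.8 CPM (-2.50 ± 0.13). Hnrnpa1, which binds let-7 precursors, was at -1.40 ± 0.25 and Ago1, a carrier of mature microRNAs, at -1.03 ± 0.12. The one rise was that of Ago4, from 0.815 to 1.53 CPM (0.73 ± 0.27, 0.0421). The direction of this list turned with the scaling. Scaled by total counts, 3 genes were lower and 9 higher, with a median of 0.06, Drosha (0.60), Dgcr8 (0.55), Tut7 (0.75) and Dis3l2 (0.76) were called higher, and Dicer1 (0.06) and Tut4 (-0.48) were no longer called.

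Known or predicted let-7 targets other than the 7 genes were called lower in 24 of 35 cases and higher in 5 from E12.5 to P0. Their median was -0.97, and 32% of all genes tested were called lower and 30.1% higher. Those that fell most were Plagl2, a zinc finger factor (7.84 to 0.509 CPM, -3.63 ± 0.31), Dna2, a helicase and nuclease of DNA replication (-3.42 ± 0.25), and Ccnd2, the cyclin of cortical progenitors (1134 to 138 CPM, -3.05 ± 0.12). Many of these genes also serve cell division, and all 10 proliferation markers were called lower, with a summed level of 1332 and 1362 CPM at E12.5 and 129 and 150 at P0. The part of proliferation in the list was not tested. Targets that rose included Myc (28.3 to 126 CPM, 2.16 ± 0.12), Irs2, Mycl (0.73 ± 0.14) and Gatm (0.43 ± 0.12). From E14 to E15.5 the list had 16 genes lower and 6 higher, where 19.6% of all genes tested were called lower and 16.5% higher. Scaled by total counts, 18 of the 35 were lower and 7 higher from E12.5 to P0 (median -0.44), and 9 lower and 8 higher from E14 to E15.5 (median -0.13).

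Myc proteins bind the E-box CACGTG, which was searched in promoter windows of 300 bases (250 before to 50 after the gene start, RefSeq, GRCm38.p6). The motif is its own reverse complement, so that both strands are read at once. It was in 7.15% of 32851 windows, and among the 6 of the 7 genes with a window it was in those of Lin28b and Igf2bp3. The match of Lin28b started 49 bases before the gene start (chr10:45470233-45470262, minus strand), and the matches of Igf2bp3 started at -23 (chr6:49214960-49214989, minus strand) and at position 6 counted from it (chr6:49214932-49214961, minus strand). A match describes the letters in the window and shows no binding.
Lin28b: aattgacagagtCACGTGtgctcaggggcc
Igf2bp3 upstream: gctgggattcctCACGTGagacgttgattt
Igf2bp3 downstream: ttgtagtttgaaCACGTGgctcattcaaaa

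The Hmga genes belong to the wider group of high mobility group proteins, abundant non-histone proteins of chromatin. Of 12 others tested, 10 were called lower and 2 higher from E12.5 to P0, beside 32% and 30.1% of all genes tested. Their median was -1.36, and the 10 include the copy Hmga1b. Hmgb2, a DNA bending protein of dividing cells, fell from 841 to 71.7 CPM (-3.55 ± 0.11), Hmgn5, a nucleosome binding protein, by 2.37 ± 0.42 and Hmg20b, a subunit of a repressor complex, by 2.16 ± 0.13. Hmgxb3 rose from 1.40 to 2.64 CPM (0.81 ± 0.18). From E14 to E15.5, 3 of the 12, among them Hmgb2 (-1.01), were called lower, beside 19.6% of all genes tested. Scaled by total counts, 6 of the 12 were lower and 2 higher from E12.5 to P0 (median -0.83).

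Genes with the cold shock domain or zinc knuckles of Lin28, or with the KH domains of Igf2bp, showed no common direction. Of 22 tested, 10 were called lower and 4 higher over the whole course, beside 32% and 30.1% of all genes tested. Their median was -0.23. Csdc2, a cold shock protein, rose from 4.91 to 30.8 CPM (2.62 ± 0.17) and Nova2, a neuronal splicing factor with KH domains, from 13.7 to 51.9 CPM (1.87 ± 0.17). Zcchc3, a zinc knuckle protein, fell from 10.9 to 2.29 CPM (-2.33 ± 0.20) and Fubp3, a KH protein, by 1.70 ± 0.17. Scaled by total counts, 3 were lower and 9 higher, and the median turned to 0.29.

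Markers of several other cells fell with the 5 genes from E14 to E15.5, but not at every step. From E14 to E15.5, 10 of 10 meningeal fibroblast genes, 9 of 10 endothelial genes and 8 of 8 tested choroid plexus genes were called lower. At this step 19.6% of all genes tested were called lower. From E15.5 to E17 the fibroblast and endothelial lists had medians of 1.24 and 1.02. In each, 2 genes were called higher, beside 5.61% of all genes tested. Those of the fibroblast list were Col1a1 and Pdgfra. Its median is uncertain, since Col6a3 (0.0301 CPM at E15.5), Col6a1 (0.0784) and Lum (0.102) were near or under the limit of 3 counts. Summed choroid plexus markers were 334 and 281 CPM (E12.5), 1128 and 1136 (E14), and between 6.26 and 14.8 CPM from E15.5 on. Most of the early sums came from Ttr, with means of 283 CPM (E12.5) and 1081 CPM (E14). Summed endothelial markers were 45.9 and 48.5 CPM (E12.5), 12.2 and 11.1 (E15.5) and 23.9 and 28.6 CPM (E17). Red blood cell markers summed to 11214 and 11607 CPM at E12.5 and to 1862 and 1439 at P0. No gene of these lists was at 0 in all libraries, and the part of these cells in the falls of the 5 genes was not tested.

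Within the cortical lineage, 8 of 10 progenitor genes were called lower and 2 higher (Fabp7 and Slc1a3) from E12.5 to P0. All 10 neuron genes were called higher, and the median of the proliferation list was -3.87. Over all genes tested 32% were called lower and 30.1% higher. Summed progenitor markers were 2228 and 2182 CPM at E12.5 and 1464 and 1999 at P0. Within these sums, Fabp7 alone had means of 969 CPM at E12.5 and 1486 CPM at P0. Ganglionic eminence markers, of cells that migrate into the cortex, summed to 33.2 and 39.8 CPM at E12.5 and 194 and 180 at P0. Summed microglia markers were 41.6 and 41.4 CPM at E14 and 30.3 and 23.4 CPM at E15.5. At this step 7 of 10 were called lower, beside 19.6% of all genes tested. Scaled by total counts it was 3 of 10, beside 12.3%. The part of these cells in the falls of the 5 genes was not tested. The share of histone genes in all counts went from 34.0% and 38.5% at E12.5 to 9.83% and 6.32% at P0, and leaving histone genes out changed no call of the 5 genes.

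**Figure D4:**
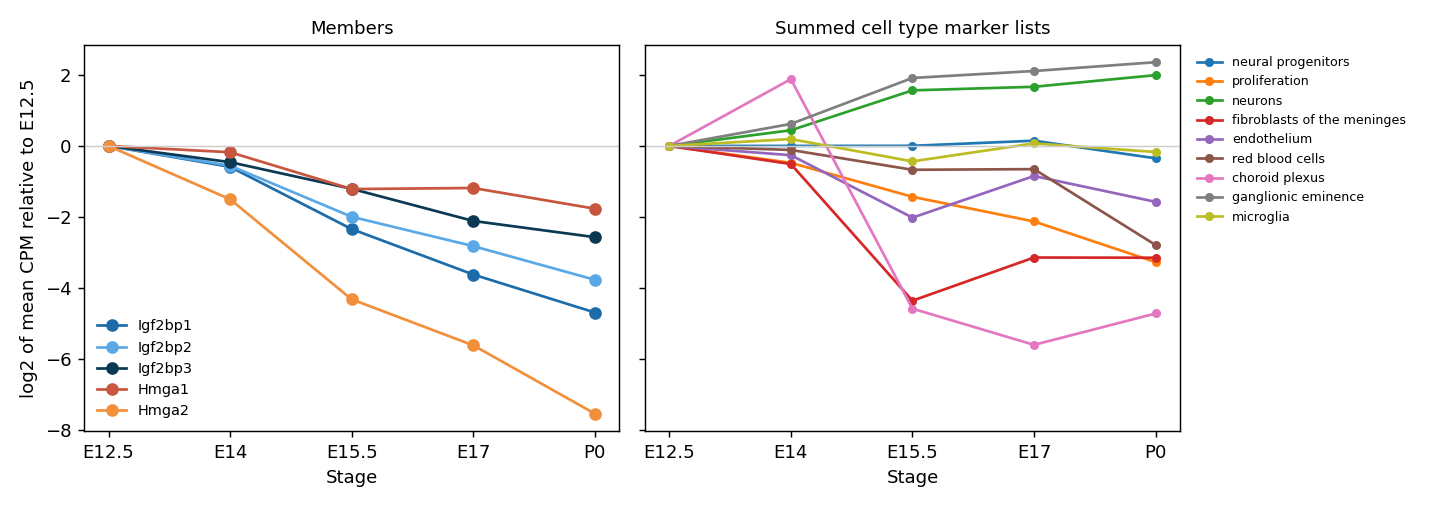
Log2 of the mean CPM of 2 libraries relative to E12.5 (y axis, same scale in both panels) against stage, for the 5 genes on the left and the summed marker lists of 9 cell types or states on the right. The proliferation list falls at every step, while the fibroblast, endothelial and choroid plexus lists drop from E14 to E15.5. Fabp7, which was called higher at P0, makes up much of the progenitor sum, while 8 of 10 progenitor genes were called lower.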

How the data were processed

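Ribo-seq libraries were grouped by the stage in the labels. The authors deposited whole-number footprint counts per gene with unequal totals, so the counts were not scaled. Per the study's methods, duplicate read sequences were collapsed, reads of tRNA, rRNA and snoRNA were filtered out, and STAR aligned what remained (2.7.0 in the submitters' processing notes), with reads that match several places kept. DeepShape-prime and tximport are named for gene-level estimates, but whether this table comes from them is not stated, so near-identical copies such as Hmga1 and Hmga1b are uncertain. Collapsing duplicates can lower the counts of highly covered genes. Of 22373 identifiers, 22274 matched a symbol.

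The filter kept 13484 genes whose footprints in some stage, both libraries together, reached 32. Counts were scaled by TMM (edgeR 4.0.16) and tested with limma-voom (limma 3.58.1, R 4.3.3), the method the study names, in a single fit of all 10 libraries with stage as the factor. Tests were two-sided, with Benjamini-Hochberg adjustment over all genes kept, and a call needed an adjusted p under 0.05 and a fold of at least 1.25. CPM values use TMM-scaled library sizes. A replicate is a pool of brains, so p-values measure the spread between pools. The code was tested on simulated counts. Intervals and limits from counts cover counting error only. Alternatives were edgeR's quasi-likelihood test, DESeq2 1.42.0, other scalings, no filter, sample quality weights, only the stages compared, no histone genes, the replicate number as a block and leaving out each library.

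The 7 genes and all lists were chosen with earlier results of these data known, so the lists are described by counts and medians and carry no test. From each list of related genes, the rule named the largest rise, the largest fall and up to 2 more called genes of the largest change from E12.5 to P0. Igf2, Trim71 and the 3 genes nearest in course to each of the 5 genes were also named, and other list genes were named after their values were seen. Some genes that the rule or the lists hold are not reported here. A planned comparison of levels per coding length was not run, since no coding lengths were used here. Promoter and microRNA sequences are from RefSeq (GRCm38.p6), and Igf2bp1 had no entry among the promoters. The methods name the GENCODE M12 mouse release for alignment, and the count table itself names no build.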

Additional observations from a re-analysis of the deposited data

How the results depend on the processing

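All 5 genes were called from E14 to E15.5 and across stages under every alternative, and 4 to 5 from E12.5 to P0. From E12.5 to E14 the count of 0 became 4 with sample quality weights, and ran from 0 to 4 with 1 library left out. From E15.5 to E17 the count of 3 ran from 0 to 3 with 1 library left out. From E17 to P0 the count of 4 was 0 with sample quality weights and 0 when only the 2 stages were fitted, and ran from 0 to 4 with 1 library left out. The causes were not tested. The log2 ratio of Igf2bp1 to Igf2bp2 (P0 minus E12.5) ran from -1.14 to -0.59 with 1 library left out. Hmga1 from E15.5 to E17 turned from 0.026 to -0.033 without E17 replicate 1, in a range of -0.033 to 0.086 with 1 library left out. Adding the Hmga1b counts to Hmga1, an alternative chosen after seeing the data, changed no call.

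Replicate numbers are shared between stages in the labels, but over all genes the same-numbered libraries of 2 stages did not always deviate together (correlations of deviations from -0.67 to 0.27, not all above 0.1), so the numbers were not taken to pair the samples. With the replicate block, 3 genes were called from E17 to P0 in place of 4, as Igf2bp3 had an adjusted p of 0.0686, and it changed no other call of the 5 genes. Hmga2, whose replicate 1 exceeded replicate 2 at all 5 stages, was at -2.74 ± 0.335 from E14 to E15.5 with the block. Depth limits Hmga2 at P0, Lin28a and Lin28b, and P0 replicate 1, the shallowest library, limits all values at P0.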
